A study of Mus musculus with 7 samples.

Results

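The interferon response and viral RNA sensing genes are 43 genes through which a cell detects foreign RNA, relays the interferon signal and makes antiviral proteins. They were taken by name, and each was read from the Affymetrix probe sets that are annotated to that gene alone. Probe sets whose names end in _x_at were dropped, and a gene counted as measured when a probe set of its own reached an intensity of 50 on at least 1 array, the level below which the authors took expression as absent. Of the 43 genes, 24 were measured, 18 never reached 50, and *Isg15*, a ubiquitin-like protein, had no probe set of its own here. The 24 genes stand among 12315 genes measured in the same way.

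RNA was measured in primary neuron cultures from the cortex of C57/Bl6J mouse embryos of day 16, kept for 16 days in vitro. The paper describes these cultures as mixed. The luciferase group (4 arrays) had received lentivirus with a short hairpin against luciferase, a gene that mice lack, with 6 hours of exposure on day 2 in vitro at 3 infectious units per cell, and was harvested 14 days after that. The blank group (3 arrays) was untransduced, and the authors had dropped 1 further untransduced sample at quality control. The vector also expressed GFP, so the virus, the hairpin and GFP came together and cannot be told apart. The cultures were in quadruplicate and randomized over plates, with no separate litters named, so the p-values measure only how far these samples scatter, and that scatter may be technical. The labels name Trizol for the RNA extraction and the methods a column kit, and the description label of the blank samples speaks of a hairpin; groups were taken from the treatment label. In the deposited table the blank columns sit 1 row too low, and they were moved up before any comparison.

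Cells recognize viral RNA with receptors in endosomes, such as TLR3, and with RNA helicases in the cytosol, such as RIG-I and MDA5, which act through the mitochondrial adaptor MAVS. Factors of the IRF family then switch on interferon genes, and secreted interferon binds a receptor whose kinases activate STAT and IRF proteins. These bind the interferon-stimulated response element (ISRE) of many antiviral genes, among them those of the IFIT, OAS, MX and IFITM families.

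The response was uneven: 4 of the 24 measured genes were higher in luciferase cultures by at least 1.5-fold, and most of the others did not pass the test. *Ifitm2*, a membrane protein that limits virus entry, was 2.27-fold higher, and *Ifit2*, which binds RNA and limits translation, was 1.75-fold higher. *Trim25*, the ubiquitin ligase that acts on RIG-I, and *Eif2ak2*, the kinase PKR that halts translation on sensing duplex RNA, were the others. At an adjusted p of at most 0.05 with at least 1.5-fold, 4 of 24 genes were called higher (16.7%), where 2.61% of all 12315 genes were, and 0 were called lower, where 1.47% of all genes were. These shares are descriptions, since 3 of the 24 genes (*Trim25*, *Eif2ak2* and *Irf9*) reached 50 only on luciferase arrays and 2 (*Oasl1* and *Ifi35*) only on blank arrays, so that the group in which they were higher let them through the filter. With no filter on level 4 of the 42 genes with a probe set of their own were called higher, where 1.86% of 18093 genes were, and with a mean of at least 50 over the 7 arrays, an alternative chosen after seeing the data, 3 of 20 were, where 2.54% of 11765 genes were. By the adjusted p alone the share was closer to the background. *Irf9*, part of the factor that binds the ISRE, joined the higher genes, which made 5 of 24 (20.8%) against 16.9% of all genes. *Oas1a* and *Oasl1* were lower, which made 2 of 24 (8.33%) against 8.55% of all genes, and 17 did not pass. All luciferase arrays lay above all blank arrays in 7 of the 24 genes, where this held for 24.6% of all genes, and below them in 3, where it held for 13.0%. The tests are limma fits of log2 intensity, luciferase minus blank, adjusted over all 22748 tested probe sets. Without luciferase replicate 4 the number called higher was 2 of 23, beside 2.56% of all genes. *Trim25* then no longer reached 50 on any array, and *Eif2ak2* passed the adjusted p at less than 1.5-fold.

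**Figure D1:**
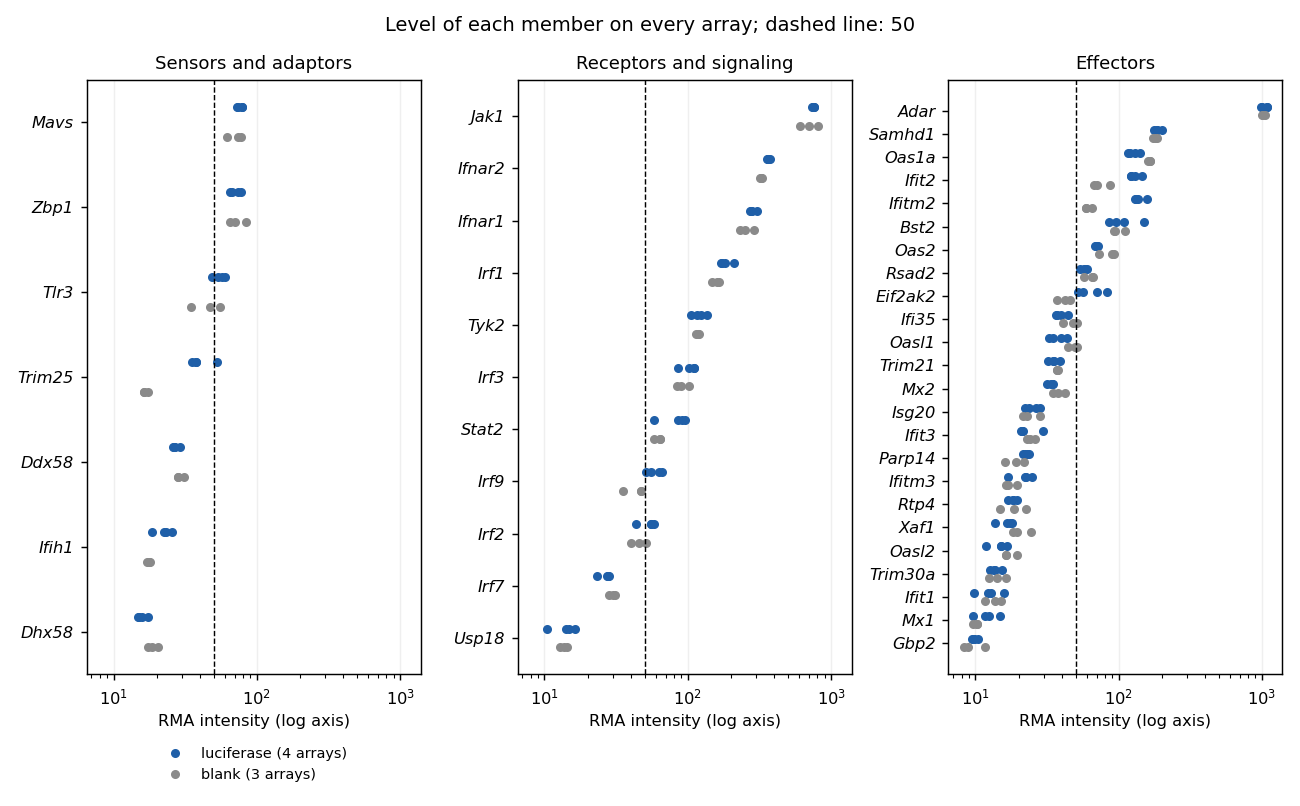
RMA intensity (log axis) of the 42 genes with a probe set of their own, on the 4 luciferase arrays (blue) and the 3 blank arrays (grey), 1 probe set per gene, by role; each point is an array and the dashed line marks 50. Of the sensors and adaptors 4 of 7 reached 50 on at least 1 array, of the receptors and signaling genes 9 of 11, and of the effectors 11 of 24.

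The genes fell into 3 roles. Of 7 sensors and adaptors, 4 were measured and 1 was higher by the adjusted p. Of 11 receptors and signaling genes, 9 were measured and 1 was higher, by less than 1.5-fold. Of 25 effectors, 11 were measured, 3 were higher and 2 were lower. The shares of measured genes that were higher were thus 25% of sensors, 11.1% of signaling genes and 27.3% of effectors, beside 16.9% of all genes. Of the effectors 18.2% were lower, beside 8.55% of all genes. The sensor share rests on *Trim25*, which entered the test through luciferase replicate 4 alone. *Irf9*, the higher signaling gene, and *Eif2ak2*, a higher effector, reached 50 only on luciferase arrays. *Oasl1*, a lower effector, reached it only on blank arrays. The group in which each of them was higher thus let it through the filter. These role shares come from few genes and are descriptions. The median log2 change was 0.19 over the measured sensors, 0.17 over the signaling genes and 0.029 over the effectors, beside 0.058 over all genes. With quantile normalization these medians were 0.21, 0.10 and -0.027, beside 0.0034 over all genes. With each array centred on its median they were 0.094, 0.071 and -0.067, beside -0.038 over all genes. Taken array by array against the blank mean, the median of the signaling genes lay between 0.16 and 0.24 on the luciferase arrays and between -0.085 and 0.031 on the blank arrays. That of the effectors lay between -0.061 and 0.050 on the luciferase arrays and between -0.024 and 0.013 on the blank arrays. That of the sensors lay between 0.13 and 0.29 on the luciferase arrays and between -0.096 and 0.062 on the blank arrays. The changes of the effectors ran from -0.37 to 1.18, around a median near that of all genes. Those of the sensors ran from -0.039 to 1.27 and those of the signaling genes from 0.029 to 0.45. The roles hold unequal numbers of genes, and a difference between them was not tested. The median level of all tested probe sets was itself 237.4 to 241.4 on the luciferase arrays and 215.5 to 235.1 on the blank arrays.

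The labelled cell type and its neighbours were read from marker lists. All 10 neuron markers were measured, and 1 of them passed the test, *Slc17a7*, the vesicular glutamate transporter of cortical excitatory neurons, which was higher. Of 11 measured astrocyte markers 6 were higher, and their summed level was 31390 to 34109 on the luciferase arrays and 24099 to 26595 on the blank arrays. Of 7 measured vascular and meningeal markers 3 were lower (*Dcn*, *Flt1* and *Col1a2*). The summed level of the 7 was 2174 to 2426 on the luciferase arrays and 2688 to 3339 on the blank arrays. Most of this sum came from *Slc2a1*, which did not pass the test. It stood at 1550 to 1720 on the luciferase arrays and 1617 to 2287 on the blank arrays. Of 8 measured oligodendrocyte markers 1 was higher (*Mbp*) and 1 lower (*Mag*). The summed levels overlapped, at 6384 to 7654 on the luciferase arrays and 6729 to 6909 on the blank arrays. *Col1a2* and *Mag* reached 50 only on blank arrays, so the group in which they were higher let them through the filter. Beside these marker counts, 16.9% of all genes were higher and 8.55% were lower by the adjusted p. Of 12 microglia markers, *Cd68* alone reached 50, at 78.7 to 121.7 on the luciferase arrays and 88.1 to 188.3 on the blank arrays, while *Aif1*, *Cx3cr1*, *Tmem119* and *P2ry12* stayed at or under 33.9. The part of these cell types in the changes below was not tested. In RNA of a whole culture, fewer cells of a type and less RNA per cell cannot be told apart.

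Promoter windows were searched for the letters of the element through which interferon acts, and 4 promoters are shown to set genes that were higher, lower and not detected side by side. A window of 250 bases before and 50 after each start site, from RefSeq on GRCm38.p6, was found for 35 of the 43 genes. The core of the ISRE was searched as GAAANNGAA on both strands. It occurred in 18 of the 35 genes (51.4%) and in 9.76% of all 27025 genes with such windows. By role it occurred in 3 of 5 sensors, 2 of 10 signaling genes and 13 of 20 effectors. It was in 9 of 22 measured genes (40.9%), beside 7.88% of all genes with a tested probe set. Of 12 genes that never reached 50, 8 had it (66.7%). The gamma-activated site, searched as TTCNNNGAA, which reads the same on both strands, occurred in 13 of the 35 genes (37.1%) and in 9.55% of all genes, and its match overlapped an ISRE match in *Bst2* and *Ifitm3*. By role this site occurred in 0 of 5 sensors, 4 of 10 signaling genes and 9 of 20 effectors. It was in 11 of 22 measured genes (50%), beside 7.86% of all genes with a tested probe set. Of 12 genes that never reached 50, 2 had it (16.7%). The 250 bases before the start are printed 5′ to 3′ on the strand of the gene, with matches to the ISRE core in capitals. *Trim25* and *Ifitm2* were higher, *Oas1a* was lower, and *Ifit1*, a classic interferon-induced gene, never reached 50.
Trim25 promoter, chr11:88999153-88999402, plus strand: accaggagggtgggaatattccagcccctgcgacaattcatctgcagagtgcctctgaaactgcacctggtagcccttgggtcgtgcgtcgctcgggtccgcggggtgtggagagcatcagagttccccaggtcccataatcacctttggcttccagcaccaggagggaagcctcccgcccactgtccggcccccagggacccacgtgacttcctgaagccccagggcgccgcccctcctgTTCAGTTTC
Ifitm2 promoter, chr7:140955962-140956211, minus strand: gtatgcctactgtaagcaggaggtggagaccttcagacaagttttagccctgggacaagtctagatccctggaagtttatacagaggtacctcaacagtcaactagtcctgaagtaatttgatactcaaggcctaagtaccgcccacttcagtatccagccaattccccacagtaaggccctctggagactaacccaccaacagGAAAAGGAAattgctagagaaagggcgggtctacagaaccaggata
Oas1a promoter, chr5:120907526-120907775, minus strand: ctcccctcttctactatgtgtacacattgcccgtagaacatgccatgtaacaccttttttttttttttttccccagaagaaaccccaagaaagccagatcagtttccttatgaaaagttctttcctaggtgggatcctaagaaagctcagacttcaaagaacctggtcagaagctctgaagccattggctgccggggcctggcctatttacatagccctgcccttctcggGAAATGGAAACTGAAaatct
Ifit1 promoter, chr19:34640639-34640888, plus strand: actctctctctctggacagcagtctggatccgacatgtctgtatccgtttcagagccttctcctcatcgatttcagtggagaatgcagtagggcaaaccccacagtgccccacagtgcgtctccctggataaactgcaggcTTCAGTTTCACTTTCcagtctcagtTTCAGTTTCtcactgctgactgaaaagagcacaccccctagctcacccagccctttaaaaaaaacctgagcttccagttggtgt
The *Trim25* match started 9 bases before the start site and that of *Ifitm2* 46 bases before it. *Oas1a* had overlapping matches that began 20 and 14 bases before the start, and *Ifit1* had 3 matches, which began 109, 103 and 84 bases before it. *Eif2ak2* had matches 18 and 24 bases after the start, and *Ifit2*, *Irf9* and *Oasl1* had none in the window. Matches were thus present in genes that were higher, lower and not detected. A match describes letters, and no factor was measured at it.

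Among the sensors, *Trim25* had higher values in luciferase cultures, at a low level, and the RNA helicases were not detected. *Trim25* stood at 37.6, 35.5, 37.7 and 52.8 on the luciferase arrays, against 17.4, 16.4 and 16.4 on the blank arrays. Every luciferase array lay above every blank array, but luciferase replicate 4 alone reached 50 and stood apart from the other luciferase arrays, so the gene entered the test through that array alone. The fitted log2 change was 1.27 (standard error, SE, 0.129, limma adjusted p = 4.8e-04, or 2.9e-04 with no filter on level), and no fold is given because the blank arrays lay under 50. A second probe set of *Trim25*, 1425974_a_at, stayed under 50 and stood at 29.3 to 48.4 on the luciferase arrays and 14.8 to 16.3 on the blank arrays (log2 change 1.18, limma adjusted p = 0.0011 with no filter on level). The third, 1426415_a_at, stood at 13.6 to 16.1 on the luciferase arrays and 16.3 to 18.9 on the blank arrays, so the 3 probe sets did not share a direction.

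*Tlr3*, the endosomal receptor of duplex RNA, stood at 60.1, 53.2, 48.5 and 56.9 on the luciferase arrays and at 34.5, 47.5 and 55.2 on the blank arrays. The groups overlapped, with blank replicate 5 the lowest array. The log2 change of 0.28 (95% interval -0.051 to 0.61) did not pass the test (limma adjusted p = 0.19), and it passed without blank replicate 7 (0.43, adjusted p = 0.044) and with array weights (0.52, adjusted p = 0.0090). *Mavs*, the mitochondrial adaptor, stood at 78.4, 73.9, 78.3 and 72.2 on the luciferase arrays and at 74.1, 77.3 and 61.6 on the blank arrays, with a 95% interval of the log2 change from -0.11 to 0.30. *Zbp1*, a sensor of left-handed nucleic acid, stood at 78.0, 73.75, 67.2 and 64.7 on the luciferase arrays and at 84.4, 70.2 and 64.7 on the blank arrays, with a 95% interval from -0.28 to 0.20. In both genes the groups overlapped. *Ddx58*, which encodes RIG-I, stood at 26.6, 26.0, 28.9 and 26.9 on the luciferase arrays and at 28.4, 31.2 and 28.0 on the blank arrays. *Ifih1*, which encodes MDA5, stood at 25.6, 18.5, 22.3 and 23.2 on the luciferase arrays and at 17.97, 17.04 and 17.8 on the blank arrays. *Dhx58*, which encodes LGP2, stood at 14.95, 14.9, 15.8 and 17.5 on the luciferase arrays and at 20.4, 18.65 and 17.5 on the blank arrays. All 3 helicase genes lay under 50 on all 7 arrays, and only in *Ifih1* did the luciferase arrays lie above every blank array on the probe set with the highest level.

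Transcripts of both subunits of the interferon receptor were above 50 on all 7 arrays. *Ifnar1*, a subunit of the receptor for type I interferon, stood at 279.8, 303.4, 273.2 and 277.7 on the luciferase arrays and at 252.3, 230.3 and 292.1 on the blank arrays. *Ifnar2*, the other subunit, stood at 365.3, 355.2, 373.2 and 361.0 on the luciferase arrays and at 323.9, 327.4 and 320.4 on the blank arrays. The groups overlapped in *Ifnar1* and did not overlap in *Ifnar2*, whose log2 change was 0.17 (SE 0.065) and did not pass the test (limma adjusted p = 0.088). That of *Ifnar1* was 0.14 (95% interval -0.067 to 0.35). The change of *Ifnar2* was 0.077 with quantile normalization and 0.071 with centred arrays. It passed with array weights (0.17, limma adjusted p = 0.030). A second probe set of *Ifnar2*, 1427691_a_at, stood at 44.2 to 50.6 on the luciferase arrays and 44.3 to 46.2 on the blank arrays.

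The probe sets of *Jak1*, a kinase of the receptor as *Tyk2* is, disagreed. *Jak1* stood at 736.5 to 764.4 on the luciferase arrays and 611.4 to 806.9 on the blank arrays on its brightest probe set, 1433805_at, with a log2 change of 0.096 (limma adjusted p = 0.48). A second probe set, 1433803_at, gave 0.10 (adjusted p = 0.47). The third, 1433804_at, stood at 319.1, 261.0, 278.4 and 400.8 on the luciferase arrays and at 176.9, 220.6 and 190.2 on the blank arrays, with no overlap and a log2 change of 0.67 (SE 0.145, adjusted p = 0.011). With the mean of its probe sets *Jak1* passed the test (0.29, limma adjusted p = 0.023). *Tyk2* stood at 105.0 to 135.8 on the luciferase arrays and 114.9 to 119.7 on the blank arrays, and its second probe set at 88.0 to 94.97 on the luciferase arrays and 77.1 to 125.3 on the blank arrays. Neither probe set of *Tyk2* passed the test.

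Of the transcription factors, *Irf9*, which gives the ISRE-binding factor its hold on DNA, was higher. It stood at 51.0, 62.9, 55.5 and 66.6 on the luciferase arrays and at 47.4, 47.45 and 35.2 on the blank arrays. All luciferase arrays lay above 50 and all blank arrays below it. The log2 change was 0.45 (SE 0.131, limma adjusted p = 0.034, or 0.047 with no filter on level), and it no longer passed with arrays centred on their medians (0.35, adjusted p = 0.10) or without luciferase replicate 2, 3 or 4 or blank replicate 7 (adjusted p from 0.061 to 0.080). *Stat2*, the partner of IRF9 that activates transcription, stood at 58.0, 91.8, 84.9 and 95.9 on the luciferase arrays and at 58.1, 64.0 and 64.2 on the blank arrays. Luciferase replicate 1 lay below all blank arrays and the other luciferase arrays above them. Its log2 change of 0.39 (SE 0.158) did not pass (limma adjusted p = 0.10) and passed without that array (0.55, adjusted p = 0.0063), while its second probe set had a log2 change of 0.078.

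*Irf1*, an activator that interferon induces, stood at 170.4 to 209.1 on the luciferase arrays and 148.5 to 164.9 on the blank arrays, with no overlap and a log2 change of 0.22 that did not pass (limma adjusted p = 0.098). *Irf2*, which opposes it at many promoters, stood at 43.2 to 57.7 on the luciferase arrays and 40.0 to 50.7 on the blank arrays. *Irf3*, which is present before infection and starts interferon transcription, stood at 85.8 to 110.6 on the luciferase arrays and 84.3 to 102.1 on the blank arrays. Neither *Irf2* nor *Irf3* passed the test, and in both the groups overlapped. *Irf7*, the interferon-induced amplifier of interferon transcription, reached at most 30.9, and *Usp18*, which removes ISG15 and damps the receptor, at most 16.25.

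**Figure D2:**
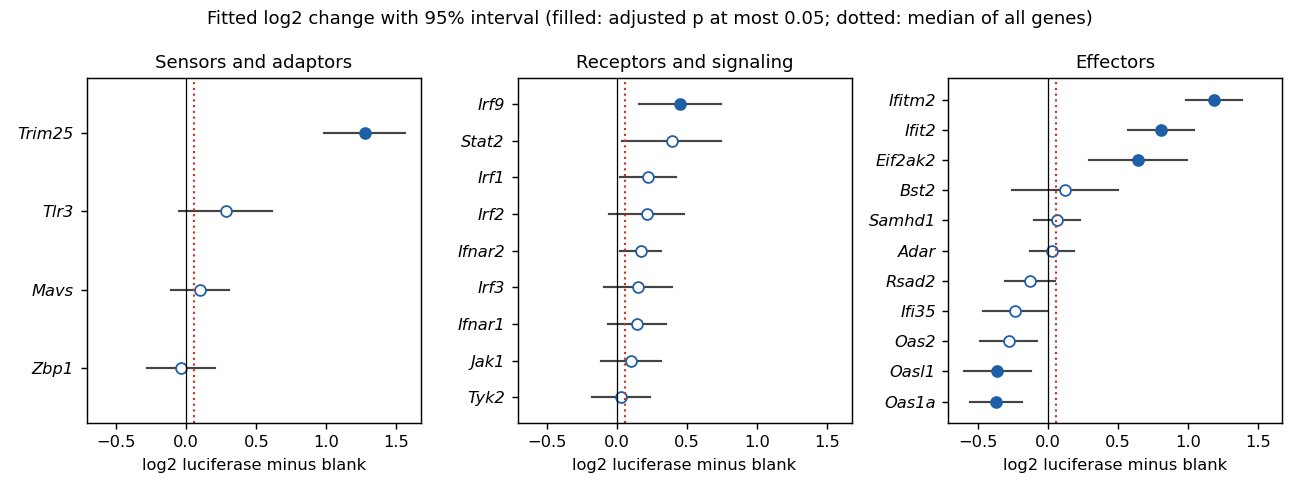
Fitted log2 change, luciferase minus blank, of the 24 measured genes by role, with the 95% interval of the limma fit; filled points have an adjusted p of at most 0.05, the solid line marks 0 and the dotted line the median of all genes, 0.058. The effectors run from 1.18 for *Ifitm2* to -0.37 for *Oas1a*, and the changes of *Tyk2*, *Samhd1* and *Adar*, which did not pass, turn below 0 with quantile normalization or centred arrays.

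Among the effectors, members of the IFITM and IFIT families were the clearest rises. *Ifitm2* stood at 135.5, 132.55, 130.01 and 158.3 on the luciferase arrays and at 59.4, 65.3 and 58.7 on the blank arrays. The groups lay far apart, and luciferase replicate 4 was the highest. Luciferase cultures averaged 139.1 ± 13.0 (SD, n = 4) and blank cultures 61.2 ± 3.63 (SD, n = 3). The log2 change of *Ifitm2* was 1.18 (SE 0.089, limma adjusted p = 1.2e-04), and it passed under all 18 alternatives. *Ifitm3*, its close relative, reached at most 25.0. Genes of this family are alike in sequence, and which of them each probe set reads could not be checked here. *Ifit2* stood at 122.2, 122.7, 129.7 and 145.3 on the luciferase arrays and at 70.1, 67.4 and 86.75 on the blank arrays. All luciferase arrays lay above all blank arrays. Luciferase cultures averaged 129.95 ± 10.8 (SD, n = 4) and blank cultures 74.7 ± 10.5 (SD, n = 3). The log2 change of *Ifit2* was 0.80 (SE 0.106, limma adjusted p = 0.0014) and also passed under all 18 alternatives. *Ifit1* and *Ifit3*, its neighbours on chromosome 19, reached at most 15.8 and 29.7.

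*Eif2ak2* stood at 51.7, 56.4, 70.9 and 83.2 on the luciferase arrays and at 41.9, 37.2 and 45.4 on the blank arrays. The groups did not overlap, and the luciferase arrays were spread more widely. Luciferase cultures averaged 65.6 ± 14.3 (SD, n = 4) and blank cultures 41.5 ± 4.14 (SD, n = 3), all blank arrays under 50. The log2 change was 0.64 (SE 0.156, limma adjusted p = 0.019, or 0.023 with no filter on level). A second probe set of the gene did not pass the test. This probe set, 1422006_at, stood at 32.2 to 38.3 on the luciferase arrays and 34.7 to 50.3 on the blank arrays (log2 change -0.23, adjusted p = 0.21). The third, 1440866_at, stayed under 50 and was not tested (log2 change 0.29, limma adjusted p = 0.26 with no filter on level). With the mean of its probe sets the gene no longer passed (0.20, adjusted p = 0.092), nor without luciferase replicate 3 (0.59, adjusted p = 0.052) or blank replicate 6 (0.56, adjusted p = 0.069).

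**Figure D3:**
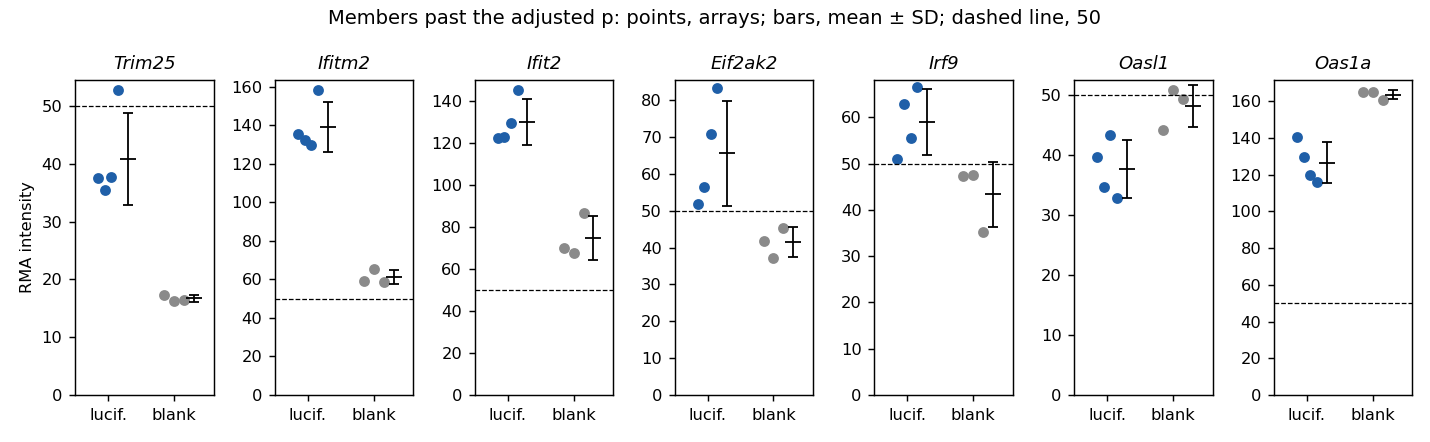
RMA intensity of the 7 genes with an adjusted p of at most 0.05, on the 4 luciferase arrays (blue) and the 3 blank arrays (grey); points are arrays, bars beside them mean ± SD, and the dashed line marks 50. The groups do not overlap in any of the 7, and the blank arrays of *Trim25*, *Eif2ak2* and *Irf9* and the luciferase arrays of *Oasl1* lie under 50.

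Of the OAS family, *Oas1a* and *Oasl1* were lower. *Oas1a*, a synthetase of the oligoadenylates that switch on RNase L, stood at 140.7, 129.9, 119.7 and 116.2 on the luciferase arrays and at 165.1, 164.9 and 161.0 on the blank arrays. The blank arrays lay close together and above all luciferase arrays. Luciferase cultures averaged 126.6 ± 11.1 (SD, n = 4) and blank cultures 163.7 ± 2.36 (SD, n = 3). The log2 change was -0.37 (SE 0.083, limma adjusted p = 0.013) and passed under all 18 alternatives. *Oas1a* has close copies in the mouse genome, and how its probe set divides between them could not be checked here. *Oasl1*, which in the mouse limits translation of *Irf7*, stood at 39.7, 34.7, 43.4 and 32.8 on the luciferase arrays and at 44.2, 50.9 and 49.3 on the blank arrays. The groups did not overlap, by a narrow margin, and blank replicate 6 alone reached 50. Its log2 change of -0.36 (SE 0.108, limma adjusted p = 0.037, or 0.056 with no filter on level) no longer passed under 9 of the 14 alternatives that measured it. *Oas2*, a larger synthetase, stood at 70.4, 69.6, 71.4 and 67.9 on the luciferase arrays and at 92.2, 90.5 and 73.3 on the blank arrays. Its groups did not overlap either, with blank replicate 7 nearest to the luciferase arrays, and its log2 change of -0.28 (SE 0.091) stood at the threshold (limma adjusted p = 0.05003, just above it). It passed under 7 of 17 alternatives. *Oasl2* reached at most 19.4.

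The other measured effectors did not pass the test. *Bst2*, which tethers budding virus, stood at 85.5 to 149.3 on the luciferase arrays and 93.2 to 110.6 on the blank arrays. *Rsad2*, the antiviral enzyme viperin, stood at 53.5 to 59.7 on the luciferase arrays and 57.0 to 65.6 on the blank arrays. *Samhd1*, which depletes the nucleotides that reverse transcription needs, stood at 176.6 to 200.6 on the luciferase arrays and 174.0 to 183.6 on the blank arrays. *Adar*, which edits adenosine in duplex RNA, stood at 989.4 to 1088 on the luciferase arrays and 1001 to 1041 on the blank arrays. In these 4 genes the groups overlapped, and the 95% intervals of the log2 changes were -0.26 to 0.50, -0.31 to 0.050, -0.099 to 0.23 and -0.13 to 0.19.

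*Ifi35*, which pairs with NMI, depended on the probe set. 1424617_at stood at 44.4, 39.3, 37.4 and 36.7 on the luciferase arrays and at 47.9, 51.1 and 40.7 on the blank arrays (log2 change -0.24, limma adjusted p = 0.12). 1445897_s_at stayed under 50, at 28.0, 29.8, 27.3 and 38.5 on the luciferase arrays and at 18.1, 14.9 and 14.9 on the blank arrays (0.94, adjusted p = 0.0016 with no filter on level). The probe set dropped for its name, 1459151_x_at, stood at 56.7 to 82.7 on the luciferase arrays and 52.3 to 66.9 on the blank arrays. The 3 probe sets thus lay on different sides, with no overlap of the groups in the second alone. *Zbp1* had a dim second probe set too, 1429947_a_at, at 15.4 to 18.7 on the luciferase arrays and 20.5 to 26.5 on the blank arrays (-0.40, adjusted p = 0.047 with no filter on level).

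**Figure D4:**
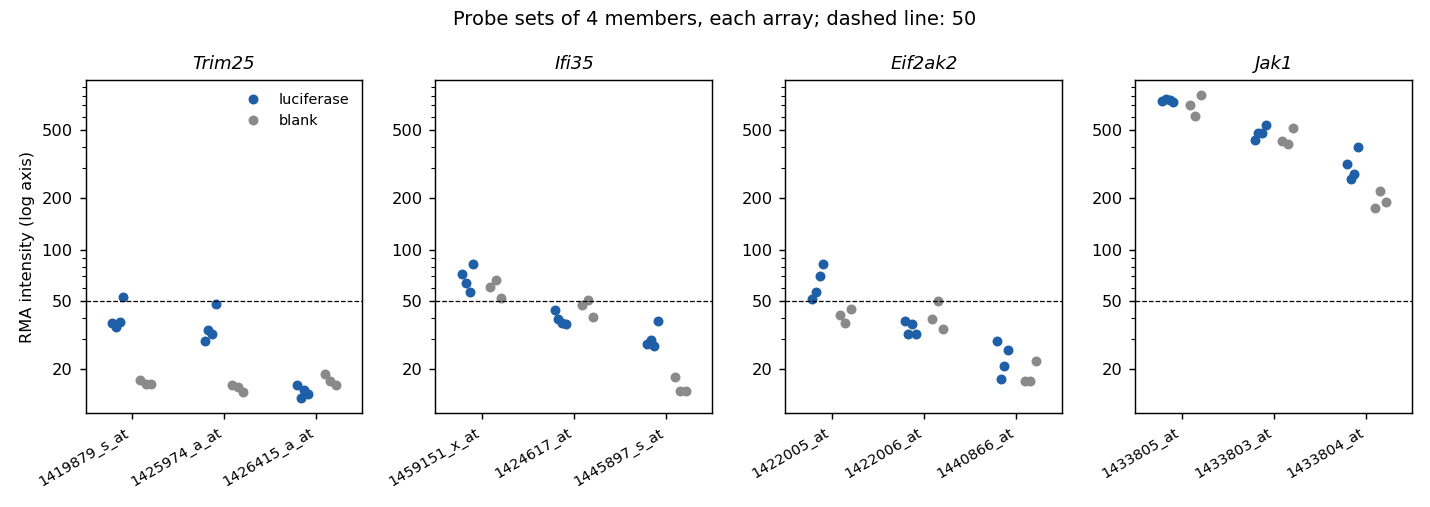
RMA intensity (log axis) of each probe set of *Trim25*, *Ifi35*, *Eif2ak2* and *Jak1* on the 4 luciferase arrays (blue) and the 3 blank arrays (grey); points are arrays and the dashed line marks 50. Of the probe sets of each gene, 1 or 2 hold the luciferase arrays above all blank arrays and the others do not.

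Of the 24 effectors with a probe set of their own, 13 never reached 50 in either group. These were *Ifit1*, *Ifit3*, *Isg20*, *Oasl2*, *Mx1*, *Mx2*, *Ifitm3*, *Trim21*, *Trim30a*, *Xaf1*, *Parp14*, *Gbp2* and *Rtp4*. *Mx1* and *Mx2*, dynamin-like GTPases that trap viral components, reached at most 14.9 and 42.3. *Gbp2*, a GTPase induced by interferons, reached at most 11.7, the lowest maximum of the 18 genes, and *Mx2* had the highest. Of the 42 genes with a probe set of their own 57.1% reached 50, beside 68.1% of 18093 genes on the array.

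Of 48 further genes of the pathway, 30 were measured, 5 were higher by the adjusted p (16.7%, beside 16.9% of all genes), 2 were lower (6.67%, beside 8.55%) and 23 did not pass. At 1.5-fold 2 were called higher (6.67%, beside 2.61% of all genes). These shares are descriptions. *Nmi* and *Gbp7*, which were higher, reached 50 only on luciferase arrays, and *Ccl5*, which was lower, only on blank arrays. The group in which each was higher thus let it through the filter. *Parp12*, an interferon-induced ADP-ribosyltransferase, was 1.87-fold higher, at 109.5, 109.9, 90.9 and 102.8 on the luciferase arrays and at 53.8, 48.0 and 64.95 on the blank arrays (log2 change 0.90, limma adjusted p = 0.0012). *Nmi*, the partner of IFI35, stood at 43.02, 53.1, 54.7 and 66.45 on the luciferase arrays and at 38.5, 31.1 and 36.5 on the blank arrays, which all lay under 50 (log2 change 0.61, adjusted p = 0.014). In both genes, the ones called at 1.5-fold, all luciferase arrays lay above all blank arrays. *Ifnb1*, the gene of interferon beta, reached at most 27.4 on any array. *Cxcl10*, a chemokine that interferons induce strongly, reached at most 34.8.

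Luciferase replicate 4 was the highest of the luciferase arrays in all 5 genes that were higher by the adjusted p. Over all 24 measured genes it was the highest in 7 (29.2%, beside 26.0% of all genes), as luciferase replicate 3 was, and the lowest in 8. It was the highest in 3 of the 5 higher genes of the further pathway lists, and in 33.1% of the 2080 genes of the whole array that were higher. In *Ifitm2* it stood at 258.8% of the blank mean, where the other luciferase arrays stood at 212.6% to 221.6%. In *Oas1a* and *Oasl1* it was the lowest array, in *Oas1a* at 71.0% of the blank mean. Without it 3 of 23 genes were higher by the adjusted p, beside 12.1% of all genes. *Irf9* then no longer passed, and *Trim25* was not measured. The other luciferase arrays still lay above all blank arrays in each of the 5.

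**Figure D5:**
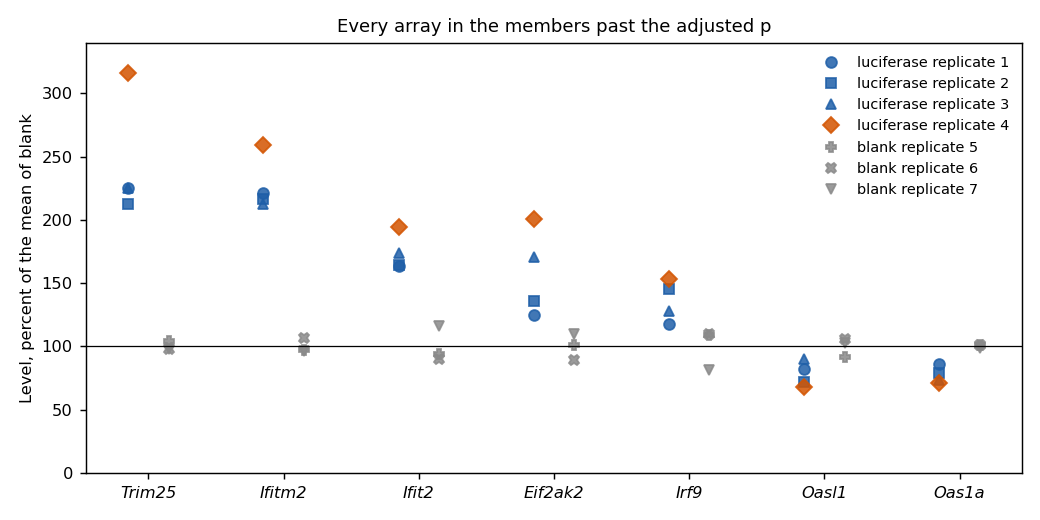
Level on each array relative to the blank mean (percent), for the 7 genes with an adjusted p of at most 0.05; blue symbols are luciferase replicates 1 to 3, orange diamonds luciferase replicate 4 and grey symbols the blank replicates. The orange diamond is the highest symbol in each of the 5 genes that were higher and the lowest in *Oas1a* and *Oasl1*. In *Trim25* the filter fixed this, since no other array reached 50. The blank arrays of *Trim25*, *Eif2ak2* and *Irf9* lie under 50, so their percentages are of a blank mean under the minimum level.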

How the data were processed

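RNA of each sample was read on its own Affymetrix mouse array. Per the methods and labels, the authors normalized the scans by robust multi-array averaging (RMA). The deposited values are intensity, not logged, and span 4.69 to 23763. The RMA version, the set of arrays normalized as a group and a genome build are not given in the sources used here, so coordinates appear for promoters alone. In the deposited table of 45101 probe sets the blank columns stand 1 row low. They were moved up by 1, after which the log2 group means had a Pearson r of 0.995 over 45037 probe sets, whereas the columns as deposited gave 0.421 and moves by -3 to -1, 2 or 3 gave 0.376 to 0.421. The table held 0 columns of other samples.

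The 64 control probe sets and 2441 names ending in _x_at were left out, and 22748 probe sets reached 50 on at least 1 array. Log2 of the values was fitted with limma 3.58.1 (R 4.3.3) as luciferase minus blank, by lmFit and eBayes with no covariates and with Benjamini-Hochberg adjustment over these. Calls used an adjusted p of at most 0.05, with and without 1.5-fold. Gene names come from the array annotation: 34945 probe sets name 1 gene, 932 several and 9160 none, and 34741 were matched by Entrez ID to RefSeq with 0 symbols updated. The tested probe set with the highest mean over the 7 arrays stands for a gene. Probe sets are compared between groups, never with each other. Promoter windows are from RefSeq on GRCm38.p6.

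The members, roles and lists were chosen with earlier results of these data known. All members are accounted for. Values on every array are given for sensors, receptors and members past the adjusted p. Members that pass no test are given by values or ranges, and of the further pathway genes those called at 1.5-fold are named. *Ifnb1*, *Cxcl10*, *Gbp7*, *Ccl5* and the markers were named with their values already known. The number of arrays limits the precision, and the median moderated SD was 0.12 on the log2 scale. The calculation was tested on simulated data. The alternatives were other filters on level, quantile normalization, centred arrays, trend and robust variance, array weights, _x_at probe sets kept, the mean of a gene's probe sets, log2(value + 16), leaving out each array and, added after seeing the data, a mean of at least 50 over the 7 arrays.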

Additional observations from a re-analysis of the deposited data

Results flagged for a closer look

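In *Trim25*, luciferase replicate 4 stood at 52.8, where the other luciferase arrays stood at 35.5 to 37.7. The gap to the nearest array was 0.873 of the range of the group, above Dixon's critical value for 4 samples. Of the 24 measured genes tested in this way in the luciferase group this was the single case, and chance alone flags about 1 in 20 groups. Without this array the gene never reached 50 and was not tested.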

How the results depend on the processing

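Of 24 measured genes, 4 were called higher at 1.5-fold, 2 with a minimum level of 100 (12 genes measured) and 2 to 4 with 1 array left out. None was called lower with 1 array left out (0 throughout). By the adjusted p alone 5 were higher, 2 at a minimum of 100, 8 with array weights and 3 to 6 with 1 array left out (3 without luciferase replicate 3 or 4). Of the lower genes, 2 in all, 1 passed with no filter on level, at a minimum of 100 and with trend and robust variance, 4 passed with array weights, and 1 to 3 with 1 array left out (1 without luciferase replicate 1, 2 or 4 or blank replicate 5 or 6). *Ifitm2*, *Ifit2* and *Oas1a* passed under all 18 alternatives and *Trim25* under the 14 that measured it. The median log2 change of the sensors (0.19) was 0.099 with no filter, with 50 on at least 4 arrays or with a mean of at least 50 over the 7 arrays (chosen after seeing the data), 0.094 with centred arrays, 0.28 with array weights and 0.11 to 0.24 with 1 array left out; no sensor was left at a minimum of 100. That of the signaling genes (0.17) was 0.10 with quantile normalization, 0.071 with centred arrays and 0.12 to 0.23 with 1 array left out. That of the effectors (0.029) was -0.027 with no filter and with quantile normalization, 0.093 at a minimum of 100, -0.067 with centred arrays, -0.076 with the mean of probe sets and -0.035 to 0.065 with 1 array left out. Changes that did not pass and turned sign were *Zbp1* (0.0038 and 0.070 without luciferase replicate 4 and blank replicate 5, in a range from -0.12 to 0.070 with 1 array left out), *Mavs* (-5.2e-04 without blank replicate 7, range to 0.16), *Jak1* (-0.0035 without blank replicate 6, range to 0.20), *Bst2* (-0.035 without luciferase replicate 2), *Ifi35* (0.19 with _x_at kept), *Samhd1* (-0.027 with quantile normalization, -0.032 centred), *Adar* (-0.021, -0.067 and -0.076 with quantile normalization, centred arrays and the mean of probe sets) and *Tyk2* (-0.031, -0.066 and -0.069 in that order, and -0.032 without luciferase replicate 3, range to 0.092). Of all genes, 322 were called higher and 181 lower, 262 and 235 with quantile normalization and 213 and 312 with centred arrays. Fewer genes tested or arrays fitted set part of these counts; for the rest the cause was not tested. No paired analysis was possible because the groups share no replicate number. For the 18 genes under 50 no fold is given.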
